A study of Mus musculus with 8 samples.

Results

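The 5 genes described here are Spp1, Ibsp, Dmp1 and Mepe, which encode bone matrix phosphoproteins of the SIBLING family, and Phex, which encodes a membrane protease that acts on SIBLING peptides. They were chosen by gene symbol from the 21154 rows of a table of raw read counts, and all 5 passed the filter on low counts that left 15373 genes for testing. The libraries came from osteoblasts, which build bone, sorted from digested bone chips of female mice. Every mouse carried the Col2.3-GFP reporter, in which a fragment of the Col1a1 promoter drives green fluorescent protein in bone-forming cells, so the sort selected cells by the activity of a collagen promoter. Mice of the DOX group (5 libraries) were given doxorubicin, a chemotherapy drug that breaks DNA, into a vein 4 times at 5 mg/kg and 1 week apart, from an age of 8 to 10 weeks. Mice of the PBS group (3 libraries) received phosphate-buffered saline on the same schedule, and bone of both groups was taken 8 weeks after treatment. The libraries belong to 2 batches named in the labels. Batch 1 holds DOX replicates 1 and 2 and PBS replicate 1, and batch 2 holds DOX replicates 3, 4 and 5 and PBS replicates 2 and 3. DOX replicate 1 is DOX by its title and PBS by its treatment tag, so it was counted as DOX here. The fold changes and ratios of the 5 genes were also computed without it and after moving it to the PBS group. The libraries are called biological replicates in the titles, and the labels do not say whether each came from its own mouse.

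SIBLING proteins (small integrin-binding ligand, N-linked glycoproteins) are acidic secreted proteins that are heavily phosphorylated, bind calcium and carry an RGD sequence that integrins recognise. Their genes lie side by side on mouse chromosome 5. In bone, osteopontin (Spp1) restrains crystal growth and attaches osteoclasts, bone sialoprotein (Ibsp) favours the start of mineral formation, and DMP1 and MEPE are made mainly by cells on the way to becoming osteocytes, the cells embedded in bone. PHEX cleaves acidic peptides released from SIBLING proteins that would otherwise block mineral, and its loss causes X-linked hypophosphataemia with high FGF23.

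The DOX libraries held 39419027 to 44151882 counts and the PBS libraries 40985302 to 44299591. The share of counts in Col1a1 and Col1a2, the genes of type I collagen, ran from 23.2% to 35.5% in DOX and from 19.1% to 39.5% in PBS. DOX replicate 1 (23.2%) and PBS replicate 1 (19.1%) had the lowest shares, and both are of batch 1. All 12 genes of an osteoblast matrix list were detected, with Col1a1 at 103500 to 213500 CPM in DOX and at 82420 to 271900 CPM in PBS. Each library thus carried the matrix genes that define osteoblasts. CPM is the depth-scaled count, with library sizes scaled by TMM, which allows for a few genes taking much of a library.

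All 5 genes were expressed in every library, with a wide range between them. Together they took 1.45% to 2.37% of counts in DOX, and 4.56% of counts in PBS replicate 1, 1.47% in PBS replicate 2 and 1.62% in PBS replicate 3. On a scale that allows for gene length (CPM per kilobase of merged exons), Ibsp stood at 5584 ± 1365 in DOX (SD, n = 5) and at 6015 ± 844 in PBS (SD, n = 3). On the same scale Spp1 stood at 4153 ± 1461 in DOX and at 6406 ± 6093 in PBS, with a PBS spread nearly as large as its mean. Dmp1 lay far lower per kilobase, at 262 ± 81.6 in DOX and 233 ± 79.6 in PBS. Phex followed at 82.7 ± 22.6 in DOX and 102 ± 45.7 in PBS, and Mepe was lowest at 25.2 ± 11.3 in DOX and 29.4 ± 15.2 in PBS. The order Ibsp, Spp1, Dmp1, Phex, Mepe held in 6 of the 8 libraries. In DOX replicate 4 and PBS replicate 1 Spp1 stood above Ibsp, and the other places in the order were as in the rest. Levels of Ibsp and Spp1 overlapped between libraries, and those of Dmp1 lay below both and above Phex in each library.

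**Figure D1:**
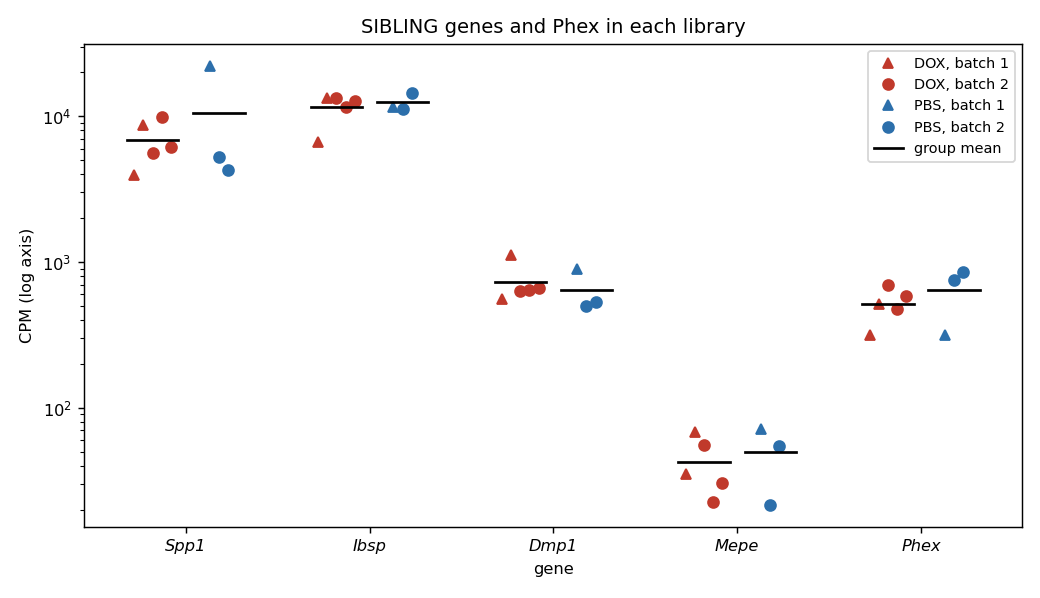
CPM of each gene in each library on a log axis, with DOX libraries (red) left of PBS libraries (blue), triangles for batch 1, circles for batch 2 and a black line at the group mean. The DOX and PBS points overlap for every gene, and the single PBS library of batch 1 stands at 22137 CPM for Spp1, above all other libraries.

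The fifth SIBLING gene of the cluster, Dspp, which encodes the dentin matrix protein of teeth, was at the edge of detection. It had 0 counts in each DOX library and 27, 0 and 0 counts in PBS replicates 1, 2 and 3. A count of 0 allows up to 3 counts, or 0.0606 to 0.0744 CPM in a DOX library and 0.0818 to 0.085 CPM in PBS replicates 2 and 3. PBS replicate 1 had 0.507 CPM, so its level lay above those limits, and Dspp did not pass the filter for testing. In the order of the chromosome, read from RefSeq, the cluster runs Dspp, Dmp1, Ibsp, Mepe, Spp1, with Sparcl1 before it and Pkd2 after it. Position in the cluster did not follow level. Pkd2, which encodes the ion channel polycystin-2, stood at 48.5 to 91.5 CPM in DOX and at 67.9 to 90.2 CPM in PBS, with a log2 fold change of -0.26 ± 0.19 (SE). Sparcl1, a matricellular protein gene related to Sparc, stood at 0.627 to 4.74 CPM in DOX and at 0.0283 to 4.21 CPM in PBS.

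The stretches before the starts of these neighbouring genes are shown because the genes share a locus and a tissue but differ in level by orders of magnitude. The sequences are the 250 bases before an annotated start, from RefSeq on GRCm38.p6, all on the plus strand, and all 5 genes of the set had an entry. Capitals mark matches to a RUNX motif (ACCACA or its reverse complement TGTGGT) and to a CCAAT box (CCAAT or its reverse complement ATTGG), each searched on both strands, and no match of one overlaps one of the other. Both motifs, and the other motifs searched below, were chosen after the sequences had been read.
Spp1 (chr5:104434861-104435110): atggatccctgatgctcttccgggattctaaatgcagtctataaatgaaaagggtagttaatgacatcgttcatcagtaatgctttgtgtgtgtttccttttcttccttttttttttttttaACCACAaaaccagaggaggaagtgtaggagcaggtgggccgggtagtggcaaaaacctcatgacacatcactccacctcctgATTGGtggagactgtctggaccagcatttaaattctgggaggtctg
Ibsp (chr5:104299037-104299286): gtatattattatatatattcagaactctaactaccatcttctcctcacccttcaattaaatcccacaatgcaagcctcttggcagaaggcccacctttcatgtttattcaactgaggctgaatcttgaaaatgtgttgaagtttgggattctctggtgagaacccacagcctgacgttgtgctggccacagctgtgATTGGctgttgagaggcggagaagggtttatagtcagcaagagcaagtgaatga
Dmp1 (chr5:104202367-104202616): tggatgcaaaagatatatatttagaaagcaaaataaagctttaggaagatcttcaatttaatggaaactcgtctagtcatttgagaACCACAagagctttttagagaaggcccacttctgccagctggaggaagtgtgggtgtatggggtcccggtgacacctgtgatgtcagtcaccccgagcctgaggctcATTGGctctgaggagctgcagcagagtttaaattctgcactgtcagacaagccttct
Mepe (chr5:104325079-104325328): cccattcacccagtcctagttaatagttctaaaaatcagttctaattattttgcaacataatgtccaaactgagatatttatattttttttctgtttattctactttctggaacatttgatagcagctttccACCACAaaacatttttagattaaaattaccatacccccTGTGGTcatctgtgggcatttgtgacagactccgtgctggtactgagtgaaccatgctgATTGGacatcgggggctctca
Each of these 4 stretches held 1 CCAAT box, always as ATTGG. The match began 46 bases before the start in Spp1, 54 in Ibsp, 57 in Dmp1 and 21 in Mepe. Of 32851 such stretches over all genes, 33.8% held a CCAAT box. RUNX motif matches were found in Spp1 (1), Dmp1 (1) and Mepe (2), and none in Ibsp, against 14% of all stretches with at least 1. Dmp1 and Spp1 each have a further start in the table: that of Dmp1 held a CCAAT box and no RUNX match, and that of Spp1 held neither. The stretch before Phex on the X chromosome held neither. A TATA-like TTTAAA was found once in the stretches shown for Spp1 and Dmp1 and once in that of Phex, against 12.1% of all stretches. A vitamin D half-site (AGGTCA or TGACCT) was found in none of them, against 14% of all stretches. A match of letters is a description and does not show that a factor binds.

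Spp1 had the most uneven levels of the 5 genes. Osteopontin RNA stood at 3944, 8669, 5553, 9897 and 6161 CPM in DOX replicates 1 to 5, and at 22137, 5267 and 4268 CPM in PBS replicates 1, 2 and 3. PBS replicate 1 was the highest library, DOX replicate 1 the lowest, and the other DOX libraries lay between the PBS libraries. Over all libraries the log2 fold change, DOX over PBS, was -0.37 ± 0.48 (SE), with a 95% interval of -1.43 to 0.69 (edgeR adjusted p = 0.995). The highest and the lowest PBS library differed 5.19-fold, against 2.51-fold in DOX. Of the 11 other tested genes within 1 log2 unit of its mean level, all (100%) had a smaller SD of log2 CPM over the 8 libraries than Spp1 (0.81).

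The direction of the Spp1 difference turned with the batch. Within batch 1, both DOX libraries (3944 and 8669 CPM) lay below the PBS library (22137 CPM), with a difference of -1.92 in mean log2 CPM. Within batch 2, the 3 DOX libraries (5553, 9897 and 6161 CPM) lay above both PBS libraries (5267 and 4268 CPM), with a difference of 0.56. Of all genes tested, 12.1% had every DOX library on one side of PBS in batch 1 and on the other side in batch 2, so Spp1 shared this pattern with many genes. The test of the interaction of batch and treatment gave 2.41 ± 0.56 log2 units (SE; edgeR unadjusted p = 0.00194), which did not pass over all genes (adjusted p = 0.228). That test called 0 of 15373 genes (0%), with 11.7% at an unadjusted p under 0.05. Without DOX replicate 1 the interaction was 1.96 (adjusted p = 0.0952).

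The fitted Spp1 difference rested on PBS replicate 1. Without that library the log2 fold change was 0.61 ± 0.34 (SE; edgeR adjusted p = 0.705), and in batch 2 alone it was 0.60 ± 0.23 (adjusted p = 0.348). Without DOX replicate 1 it was 0.03 ± 0.39 (adjusted p = 0.999), and after moving that library to PBS it was 0.19 ± 0.51 (adjusted p = 0.999). Leaving out PBS replicate 2 gave -0.69, leaving out PBS replicate 3 gave -0.80 and leaving out DOX replicate 4 gave -0.61. None of these passed the threshold, and the sign depended on which library was left out.

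Ibsp was the steadiest of the 5. Bone sialoprotein RNA stood at 6670, 13431, 13348, 11606 and 12687 CPM in DOX replicates 1 to 5, and at 11647, 11231 and 14440 CPM in PBS replicates 1, 2 and 3. DOX replicate 1 stood alone at the low end, and the other 7 libraries lay between 11231 and 14440 CPM. The log2 fold change was -0.10 ± 0.22 (SE), with a 95% interval of -0.59 to 0.39 (edgeR adjusted p = 0.995). Without DOX replicate 1 it was 0.04 ± 0.15, and after moving that library to PBS it was 0.18 ± 0.21. Leaving out DOX replicate 2 gave -0.26, PBS replicate 2 gave -0.21, and either PBS replicate 1 or PBS replicate 3 gave -0.02. The difference was -0.30 within batch 1 and -0.02 within batch 2, on the scale of mean log2 CPM.

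Dmp1 was the one gene of the set with a positive fitted difference. DMP1 is a matrix protein whose loss gives soft bone and high FGF23. Its RNA stood at 559, 1121, 629, 644 and 667 CPM in DOX replicates 1 to 5, and at 897, 500 and 533 CPM in PBS replicates 1, 2 and 3. DOX replicate 2 and PBS replicate 1, both of batch 1, were the highest libraries. The log2 fold change was 0.17 ± 0.21 (SE), with a 95% interval of -0.29 to 0.63 (edgeR adjusted p = 0.995). In batch 2, all 3 DOX libraries (629, 644 and 667 CPM) lay above both PBS libraries (500 and 533 CPM), where the fitted value was 0.33 ± 0.10 (SE; adjusted p = 0.319). In batch 1 alone it was -0.11 ± 0.54, with DOX libraries on both sides of the PBS library. Leaving out PBS replicate 1 gave 0.33, DOX replicate 1 gave 0.32, DOX replicate 2 gave 0.03 and PBS replicate 2 gave 0.10. Moving DOX replicate 1 to PBS gave 0.43.

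Mepe had the lowest level and a wide spread. MEPE is a matrix protein of osteocytes that yields an acidic peptide which binds mineral. Its RNA stood at 34.9, 68.6, 55.3, 22.6 and 30.6 CPM in DOX replicates 1 to 5, and at 71.8, 21.5 and 54.8 CPM in PBS replicates 1, 2 and 3. The groups overlapped throughout, with PBS libraries at both ends of the range. The log2 fold change was -0.22 ± 0.36 (SE), with a 95% interval of -1.02 to 0.58 (edgeR adjusted p = 0.995). Leaving out PBS replicate 3 gave 0.11, PBS replicate 2 gave -0.54 and DOX replicate 3 gave -0.50. Leaving out DOX replicate 2 gave -0.36, PBS replicate 1 gave -0.07, DOX replicate 1 gave -0.08 and DOX replicate 4 gave -0.10. Of 3720 other genes within 1 log2 unit of its level, 98.8% had a smaller SD of log2 CPM over the 8 libraries.

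Phex had its lowest levels in 2 libraries of batch 1, one of each group. Its RNA stood at 315, 517, 700, 476 and 582 CPM in DOX replicates 1 to 5, and at 314, 746 and 855 CPM in PBS replicates 1, 2 and 3. The lowest libraries were PBS replicate 1 and DOX replicate 1, and the highest were both PBS libraries of batch 2. The log2 fold change, DOX over PBS, was -0.16 ± 0.23 (SE), with a 95% interval of -0.67 to 0.34 (edgeR adjusted p = 0.995). Within batch 1 the DOX libraries lay above the PBS library, by 0.36 in mean log2 CPM, and within batch 2 they lay below both PBS libraries, by -0.47. The interaction was -0.86 ± 0.39 (SE; edgeR adjusted p = 0.441). Without PBS replicate 1 the fold change was -0.44 ± 0.23 (adjusted p = 0.701), and without PBS replicate 3 it was -0.02. Leaving out DOX replicate 2 gave -0.32, DOX replicate 4 gave -0.04, and moving DOX replicate 1 to PBS gave -0.03.

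**Figure D2:**
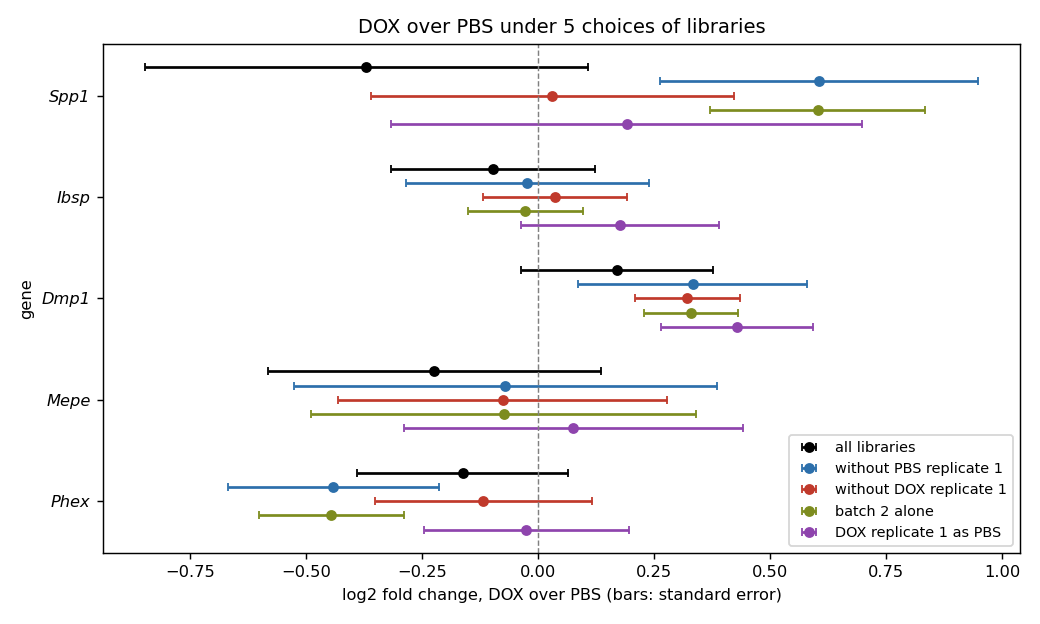
Fitted log2 fold change, DOX over PBS, of each gene with its standard error, for all libraries and for 4 other choices of libraries. The Spp1 value is -0.37 over all libraries and 0.61 without PBS replicate 1, and Dmp1 is above 0 in each choice plotted.

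None of the 5 genes passed between DOX and PBS. In edgeR 0 of the 5 had an adjusted p under 0.05, against 0 of 15373 genes tested (0%), and 0 of the 5 had an unadjusted p under 0.05, against 3.71% of all genes. DESeq2 also called 0 of the 5, against 0.123% of its genes, and limma-voom 0 of the 5, against 0%. At an unadjusted p under 0.05 both had 0 of the 5, against 4.27% of genes in DESeq2 and 10.2% in limma-voom. For no gene of the set did all DOX libraries lie on one side of all PBS libraries, against 1.24% of genes above and 1.19% below. The fitted change was above 0 for 1 of the 5 genes and below 0 for 4, against 53% of all genes above 0. The median log2 fold change was -0.16 over the 4 SIBLING genes tested and 0.02 over all genes. With so few libraries, the intervals leave room for changes in either direction.

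Between batches, with treatment held constant, Phex was higher in batch 2 by 0.78 ± 0.23 log2 units (SE; edgeR unadjusted p = 0.00747). Dmp1 was lower in batch 2, with -0.53 ± 0.20 (unadjusted p = 0.0257). Neither passed over all genes, with adjusted p-values of 0.222 and 0.288, and 0.0911% of genes passed. An unadjusted p under 0.05 was found for 14.6% of all genes in this test. For Spp1 the value was -0.77 ± 0.47, for Mepe -0.66 ± 0.36 and for Ibsp 0.26 ± 0.22. Without DOX replicate 2 the Phex value was 1.10 ± 0.18 and passed (edgeR adjusted p = 0.0227), and without PBS replicate 1 the Spp1 value was 0.19. Over all libraries 14 genes were called between batches, and each library left out moved that number: 938 without DOX replicate 2, 0 without PBS replicate 1 and 3 to 8 without any one of the other 6.

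Ratios between genes of 1 library do not depend on how the libraries are scaled. The ratio of Spp1 to Ibsp counts was 0.591, 0.645, 0.416, 0.853 and 0.486 in DOX replicates 1 to 5, and 1.90, 0.469 and 0.296 in PBS replicates 1, 2 and 3. PBS replicate 1 was the only library of the 8 with more Spp1 than Ibsp counts. On the log2 scale the ratio averaged -0.79 ± 0.40 in DOX (SD, n = 5) and -0.64 ± 1.40 in PBS (SD, n = 3), with a difference of -0.14 (exact two-sided permutation p = 0.857). Without PBS replicate 1 the difference was 0.64 (exact permutation p = 0.19).

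Relative to Dmp1, the other genes had lower mean log2 ratios in DOX than in PBS. Each difference was smaller than the SD of the PBS libraries, and that of Spp1 to Dmp1 was larger than the SD of the DOX libraries. These ratios share Dmp1, so their common direction is not a separate result for each gene. The log2 ratio of Ibsp to Dmp1 averaged 4.00 ± 0.39 in DOX and 4.32 ± 0.55 in PBS, with a difference of -0.32 (exact permutation p = 0.357). The ratio of Ibsp to Dmp1 counts was 11.9 and 12.0 in the DOX libraries of batch 1 and 13.0 in the PBS library of that batch. In batch 2 it was 21.2, 18 and 19 in DOX replicates 3, 4 and 5 and 22.5 and 27.1 in PBS replicates 2 and 3. The DOX libraries thus lay below the PBS libraries within each batch, where the 3 and 5 libraries allow no p below 0.333 and 0.10. The batches did not overlap in this ratio, and the p of 0.357 takes no account of batch. With batch as a term the difference was -0.27, and with labels exchanged only within batches the exact permutation p was 0.0333, the smallest that 30 ways allow. Adjusted over the 5 ratios it was 0.167, and those of the other 4 were 0.542 to 0.767. This test was added after the values were seen.

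The ratio of Phex to Dmp1 counts was 0.564, 0.462, 1.11, 0.74 and 0.873 in DOX replicates 1 to 5, and 0.350, 1.49 and 1.60 in PBS replicates 1, 2 and 3. In batch 2 the DOX libraries lay below both PBS libraries, and in batch 1 they lay above the PBS library. The log2 difference was -0.40 over all libraries (exact permutation p = 0.518). Leaving out PBS replicate 1 gave -1.11 (exact permutation p = 0.0952), PBS replicate 2 gave -0.07 and PBS replicate 3 gave -0.02. The difference of Mepe to Dmp1 was -0.34 (exact permutation p = 0.429) and that of Spp1 to Dmp1 was -0.46 (exact permutation p = 0.339). The 5 ratios had adjusted p-values of 0.647 to 0.857 over the family, and the smallest p that the 56 ways to choose 3 of 8 libraries allow is 0.0179. For Mepe to Dmp1, leaving out PBS replicate 2 gave -0.70 and PBS replicate 3 gave -0.07. For Spp1 to Dmp1, leaving out PBS replicate 3 gave -0.80 and PBS replicate 1 gave 0.01. For Ibsp to Dmp1, leaving out PBS replicate 1 gave -0.63.

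**Figure D3:**
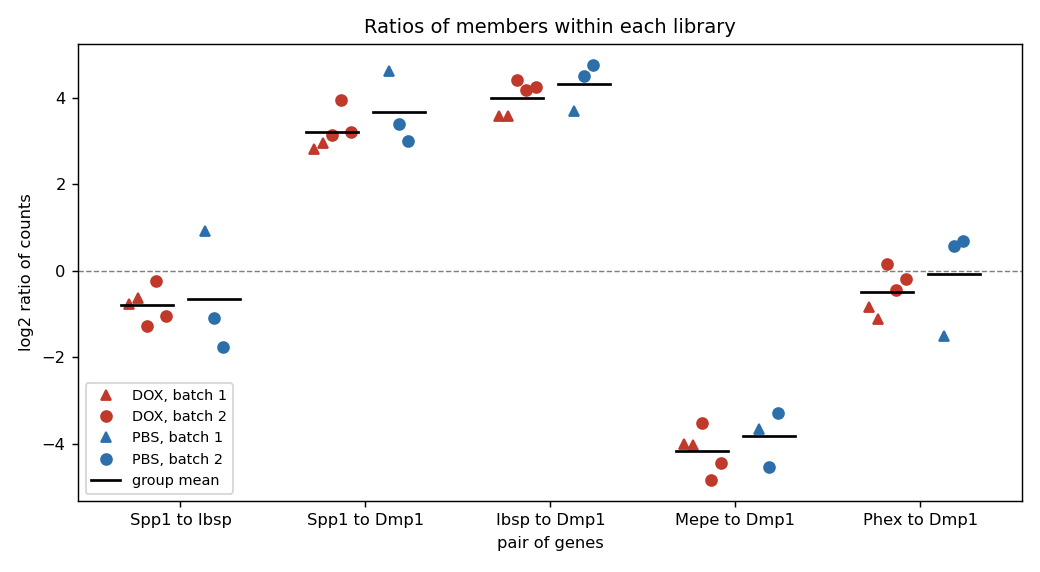
Log2 ratio of counts for 5 pairs of genes in each library, with DOX libraries (red) left of PBS libraries (blue), triangles for batch 1, circles for batch 2 and black lines at group means. Spp1 to Ibsp is above 0 in PBS replicate 1 alone, at 0.93, and Ibsp to Dmp1 separates batch 1 from batch 2.

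Across the 8 libraries, 7 of the 10 pairs of genes had a positive correlation and none passed after adjustment. Of 10 pairs, the largest Pearson r of log2 CPM was that of Spp1 with Dmp1 (r = 0.69, exact permutation p = 0.0577; Spearman rho = 0.79, exact permutation p = 0.0279), with adjusted p-values of 0.288 and 0.279 over the 10 pairs. It was 0.88 without the 2 libraries farthest from the Spp1 median (PBS replicate 1 and DOX replicate 4), and 0.63 for deviations from the batch means. Ibsp with Phex had r = 0.67 (exact permutation p = 0.0427; rho = 0.48, exact permutation p = 0.243; adjusted p = 0.288 and 0.405). Without DOX replicate 1 and PBS replicate 3 that r was 0.22, so it rested on those libraries. Dmp1 with Mepe had r = 0.63 (exact permutation p = 0.0952; rho = 0.60, exact permutation p = 0.132; adjusted p = 0.317 and 0.405), and 0.03 without DOX replicate 2 and PBS replicate 1. The lowest was Spp1 with Phex at r = -0.51 (exact permutation p = 0.192; rho = -0.50, exact permutation p = 0.216; adjusted p = 0.479 and 0.405), and 0.09 without PBS replicate 1 and DOX replicate 4. The other 6 pairs had r between -0.41 and 0.34. For deviations from the batch means, 9 of the 10 pairs had a positive r, given here as a description. There r was 0.83 for Ibsp with Dmp1 (0.28 before the batch means were removed) and 0.77 for Ibsp with Mepe (0.33 before). It was 0.52 for Mepe with Phex (-0.14 before), 0.19 for Dmp1 with Phex (-0.41 before) and -0.36 for Spp1 with Phex. These positive values did not all hold within batch 2 alone. There r was 0.05 for Ibsp with Dmp1, 0.04 for Dmp1 with Mepe and -0.75 for Dmp1 with Phex. With Spp1 it was -0.601 for Ibsp, -0.605 for Mepe, -0.97 for Phex and 0.62 for Dmp1. It was 0.945 for Ibsp with Mepe, 0.54 for Ibsp with Phex and 0.58 for Mepe with Phex.

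The genes most like each of the 5 in pattern over the 8 libraries differed from gene to gene. Likeness was Pearson r of log2 CPM against 10239 other genes, given as a description. With Spp1 they were Ctsc (r = 0.97; 0.92 without PBS replicate 1), Zfp983, Itgb5, Cct3 and Fbxl5. Ctsc encodes the lysosomal protease cathepsin C, and Itgb5 encodes an integrin chain of an osteopontin receptor. Itgb5 stood at 126, 244, 158, 195 and 170 CPM in DOX replicates 1 to 5, and at 358, 158 and 124 CPM in PBS replicates 1, 2 and 3, with r = 0.97 over 8 libraries and 0.92 without PBS replicate 1. With Ibsp they were Hgsnat (r = 0.99), Tmem185a, Tufm, Nhlrc3 and Vwa5a, with r of 0.97 to 0.99. Each of them was lowest in DOX replicate 1, as Ibsp was, and r without that library was not computed. Hgsnat stood at 38.4 CPM in DOX replicate 1 and at 54.1 to 64.5 CPM in the other libraries.

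Dmp1 was most like Wdr5 (r = 0.96), Xdh, Tgm2, Snw1 and Clip3. Tgm2, a transglutaminase that cross-links osteopontin, stood at 19.3, 47.3, 23.9, 26.7 and 28.6 CPM in DOX replicates 1 to 5, and at 37.1, 25.0 and 22.5 CPM in PBS replicates 1, 2 and 3. DOX replicate 2 and PBS replicate 1 were highest for it, as for Dmp1. Mepe was most like Ctps2 (r = 0.95), Mllt10, Snrpa, Hic2 and Cdan1. Phex was most like Dvl2 (r = 0.99), Pls3, Snd1, Cdh2 and Sh3yl1. Cdh2, which encodes N-cadherin, stood at 283, 429, 500, 409 and 409 CPM in DOX replicates 1 to 5, and at 276, 566 and 629 CPM in PBS replicates 1, 2 and 3. Both libraries lowest for Phex were also lowest for Cdh2.

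**Figure D4:**
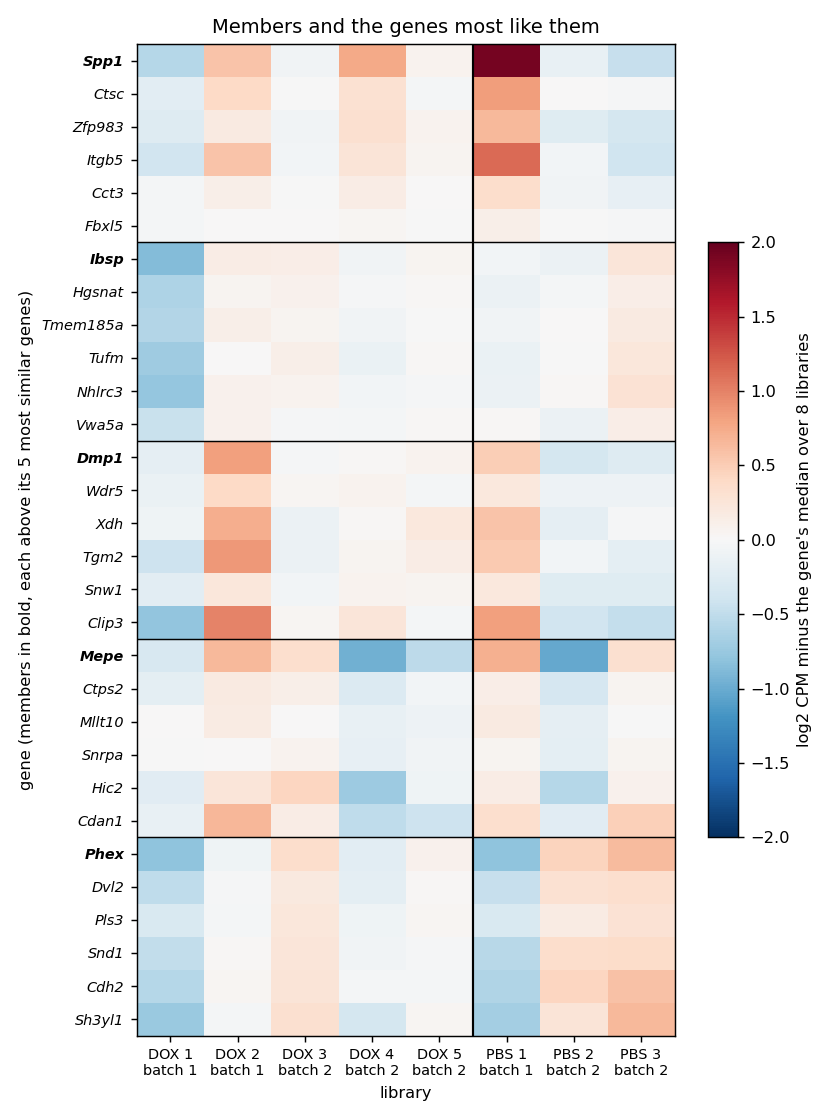
Log2 CPM minus the median of the gene over 8 libraries, for the 5 genes (bold) and the 5 genes most like each, with DOX libraries left of the vertical line and PBS libraries right of it. Spp1 and Itgb5 are highest in PBS replicate 1, and Phex and its neighbours are low in DOX replicate 1 and PBS replicate 1.

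Genes for the receptors of SIBLING proteins gave no call. Of 10 listed genes 9 were tested, 3 with a fitted value above 0 and 6 below, with a median log2 fold change of -0.11, against 0.02 over all genes. EdgeR called 0 of them and none had an unadjusted p under 0.05, DESeq2 called 0, and limma-voom called 0, with 1 of the 9 at an unadjusted p under 0.05, against 10.2% of all genes in that tool. Itgb1, the common beta chain of many matrix receptors, stood at 726 ± 152 CPM in DOX (SD, n = 5) and at 813 ± 209 CPM in PBS (SD, n = 3). The log2 fold change of Itgb1 was -0.11 ± 0.18 (SE), against -0.18 ± 0.28 for Itgb5. Itgav, the alpha chain that pairs with both Itgb3 and Itgb5, had -0.29 ± 0.20, and Itga5, the alpha chain of a fibronectin receptor, had -0.21 ± 0.19.

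A list of genes for kinases, proteases and other proteins taken to act on SIBLING proteins also gave no call in edgeR. Among the others is the transglutaminase gene Tgm2. Of 18 listed genes 15 were tested, 6 above 0 and 9 below, with a median of -0.08. Adjusted calls were 0 in edgeR, DESeq2 and limma-voom, and unadjusted p-values fell under 0.05 for 1, 2 and 2 genes in those tools, against 3.71%, 4.27% and 10.2% of all genes. Mmp13, a collagenase of osteoblasts and hypertrophic cartilage, stood at 857, 2209, 1174, 1105 and 1565 CPM in DOX replicates 1 to 5, and at 4935, 1058 and 893 CPM in PBS replicates 1, 2 and 3. Like Spp1 it was highest in PBS replicate 1 and lowest in DOX replicate 1. Its log2 fold change was -0.43 ± 0.42 (SE). Mmp2, a gelatinase that is also made by fibroblasts, had -0.01 ± 0.21, and Ctsk, the collagen-degrading cathepsin K, had 0.27 ± 0.13. F2, which encodes thrombin, a protease that cleaves osteopontin, was near the detection limit, with 0 to 0.295 CPM in DOX and 0 in each PBS library. It was the 1 gene of the list at an unadjusted p under 0.05 in edgeR. Its log2 fold change of 5.73 ± 2.34 (SE; edgeR unadjusted p = 0.0396, adjusted p = 0.995) rests on 12, 0, 12, 10 and 0 counts in DOX replicates 1 to 5. Fam20c, the kinase that phosphorylates SIBLING proteins, was added after its values were seen. It stood at 107, 148, 120, 143 and 125 CPM in DOX replicates 1 to 5, and at 184, 159 and 115 CPM in PBS replicates 1, 2 and 3, with a log2 fold change of -0.25 ± 0.16 (SE; edgeR adjusted p = 0.995).

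In the protease family of PHEX, 4 of 7 listed genes were tested, Phex included, with 1 above 0 and 3 below and a median of -0.12. EdgeR, DESeq2 and limma-voom called 0 of them, and none had an unadjusted p under 0.05 in any of the 3. Mme, which encodes neprilysin, stood at 81.4 ± 16.4 CPM in DOX (SD, n = 5) and at 89.1 ± 8.11 CPM in PBS (SD, n = 3), with a log2 fold change of -0.14 ± 0.17 (SE). Kel, a blood group protease gene of red cells, stood at no more than 0.889 CPM in any library, with a value of 0.98 ± 0.86.

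On the phosphate and FGF23 axis, 11 of 18 listed genes were tested, 4 above 0 and 7 below, with a median of -0.16. Adjusted calls were 0 in edgeR, DESeq2 and limma-voom, and unadjusted p-values fell under 0.05 for 1, 1 and 2 genes in those tools, against 3.71%, 4.27% and 10.2% of all genes. Slc20a2, a phosphate transporter, stood at 13.2, 11.9, 6.18, 7.41 and 6.83 CPM in DOX replicates 1 to 5, and at 20.3, 11.3 and 7.25 CPM in PBS replicates 1, 2 and 3. Batch 1 libraries were the highest in both groups, and the log2 fold change was -0.53 ± 0.18 (SE; edgeR unadjusted p = 0.013, adjusted p = 0.995). Xpr1, a phosphate exporter, had -0.43 ± 0.25, Alpl (alkaline phosphatase) had -0.10 ± 0.17 and Pth1r, the receptor of parathyroid hormone, had 0.00 ± 0.13. Fgf23, the hormone that DMP1 and PHEX restrain, was added after its values were seen. It had 0.849, 1.12, 0, 0 and 0.145 CPM in DOX replicates 1 to 5, and 0.0939, 0 and 0.085 CPM in PBS replicates 1, 2 and 3, and did not pass the filter for testing.

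Of the transcription factors that act on SIBLING genes, all 17 listed were tested, 8 above 0 and 9 below, with a median of -0.03. Adjusted calls were 0 in edgeR, DESeq2 and limma-voom, and unadjusted p-values fell under 0.05 for 1, 2 and 2 genes in those tools, against 3.71%, 4.27% and 10.2% of all genes. Fos, an AP-1 gene that responds quickly to stimuli and to cell handling, stood at 977 ± 351 CPM in DOX (SD, n = 5) and at 684 ± 160 CPM in PBS (SD, n = 3). It had a log2 fold change of 0.43 ± 0.18 (SE; edgeR unadjusted p = 0.0361, adjusted p = 0.995). Jun, its partner, had 0.43 ± 0.20, and Mef2c, a factor of bone and muscle, had 0.03 ± 0.15. Runx2 and Sp7, which drive osteoblast differentiation, were added after their values were seen and had -0.18 ± 0.15 and -0.03 ± 0.17.

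PBS replicate 1, where Spp1, Mepe and Dspp were highest, also stood apart in genes of other cell types. It was the highest of the 8 libraries for 18.4% of all genes tested, against 22.3% for DOX replicate 1. Spp1 lay 1.99 log2 units above the median of the other 7 libraries there, and 3.17% of tested genes lay further above theirs. The value was 1.04 for Mepe, 0.51 for Dmp1, -0.12 for Ibsp and -0.89 for Phex. The share of tested genes with a higher value was 10.9% for Mepe, 21.1% for Dmp1, 60.7% for Ibsp and 91.9% for Phex. Fewer cells of a type and less RNA per cell cannot be told apart in bulk libraries.

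Marker lists of cells that are known to express Spp1 were summed in each library. The osteoclast list summed to 449 to 510 CPM in DOX, and to 492 CPM in PBS replicate 1, 428 in PBS replicate 2 and 370 in PBS replicate 3, so PBS replicate 1 lay within the DOX range. Most of that sum is Ctsk (328 CPM in PBS replicate 1), which is also in the list of fibroblasts, periosteum and tendon. The other 9 genes summed to 91.5 to 141 CPM in DOX and to 164, 114 and 103 CPM in PBS replicates 1, 2 and 3, so PBS replicate 1 was the highest library for them. Of the 10 detected genes, 5 were highest in PBS replicate 1, among them Itgb3, a chain of an osteopontin receptor, and the gelatinase gene Mmp9. Itgb3 stood at 13.6 to 26.9 CPM in DOX and at 46.4, 9.54 and 8.84 CPM in PBS replicates 1, 2 and 3. Mmp9 stood at 2.44 to 11.6 CPM in DOX and at 22.8, 3.19 and 5.69 CPM in PBS replicates 1, 2 and 3. Acp5, which defines osteoclasts, stood at 3.58 to 7.51 CPM in DOX and at 5.75 to 7.10 CPM in PBS, and 2 of the 12 listed genes, Dcstamp and Calcr, were not in the table. For the monocyte and macrophage list, 10 genes summed to 9.54 to 13.1 CPM in DOX and to 41.5, 7.47 and 5.21 CPM in PBS replicates 1, 2 and 3, with 4 of the 10 highest in PBS replicate 1. Most of the sum of these 10 genes in PBS replicate 1 is Gpnmb, a glycoprotein gene of macrophages and osteoclasts. It stood at 1.99 to 5.58 CPM in DOX and at 32.8, 2.35 and 0.34 CPM in PBS replicates 1, 2 and 3. The sum in PBS replicate 1 is thus mainly the level of that gene. Cd14, Cd68, Lyz2 and Mrc1 were each higher in at least 1 DOX library than in PBS replicate 1. Adgre1, which encodes the macrophage marker F4/80, stood at 0 to 0.93 CPM in DOX and at 0.0751, 0 and 0.906 CPM in PBS replicates 1, 2 and 3. C1qa, a complement gene of macrophages, was at 0 in each DOX library and at 0.207, 0 and 0 CPM in PBS replicates 1, 2 and 3. Ms4a7 was at 0 in PBS replicate 1, and C1qc and Fcgr1 were not in the table.

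The cartilage list summed to 1952 to 5670 CPM in DOX and to 2757, 7058 and 7184 CPM in PBS replicates 1, 2 and 3. Most of that sum is Col2a1 (2116 CPM in PBS replicate 1). Its other 9 genes summed to 172 to 571 CPM in DOX and to 641, 237 and 128 CPM in PBS replicates 1, 2 and 3. Most of the 641 CPM is Comp, which stood at 153 to 519 CPM in DOX and at 564, 208 and 107 CPM in PBS replicates 1, 2 and 3. Of the 10 genes, 7 were highest in PBS replicate 1. Col2a1, Sox9 and Col9a1 were not, and Col9a1 was lowest there (3.83 CPM). Col10a1, the collagen of hypertrophic chondrocytes, stood at 0.0985 to 1.09 CPM in DOX and at 5.62, 0.409 and 0 CPM in PBS replicates 1, 2 and 3. Ihh, a signal of prehypertrophic chondrocytes, stood at 0.397 to 2.17 CPM in DOX and at 8.06, 1.01 and 0.51 CPM in PBS replicates 1, 2 and 3. The list of reticular and adipogenic stroma summed to 166 to 546 CPM in DOX and to 888, 242 and 139 CPM in PBS replicates 1, 2 and 3, with 8 of 10 genes highest in PBS replicate 1. The erythroid list summed to 6.74 to 114 CPM in DOX and to 176, 10.3 and 16.0 CPM in PBS replicates 1, 2 and 3, with 10 of 11 genes highest in PBS replicate 1. The endothelial list summed to 1.01 to 15.1 CPM in DOX and to 18.4, 1.01 and 1.56 CPM in PBS replicates 1, 2 and 3, with 6 of 8 genes highest in PBS replicate 1.

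The summed level of each of 5 other lists was not highest in PBS replicate 1. The neutrophil list summed to 19.7 to 132 CPM in DOX and to 48.3, 53.5 and 11.9 CPM in PBS replicates 1, 2 and 3, and in DOX replicate 5 most of it was Mpo and Elane. Of its 9 genes, 6 were highest in PBS replicate 1, such as S100a8 at 0.222 to 4.97 CPM in DOX and at 5.39, 2.29 and 0.312 CPM in PBS replicates 1, 2 and 3. The B cell list summed to 46.0 to 72.2 CPM in DOX and 60.5, 46.7 and 59.1 CPM in PBS replicates 1, 2 and 3. Of its 8 genes, 1 was highest in PBS replicate 1. Most of that sum is Ebf1 in each library. The other 7 genes summed to 1.79 to 17.2 CPM in DOX. In PBS replicates 1, 2 and 3 they summed to 4.47, 6.65 and 13.9 CPM. The list of fibroblasts, periosteum and tendon summed to 8583 to 12510 CPM in DOX and to 8905, 11960 and 11440 CPM in PBS replicates 1, 2 and 3. Most of that sum is Dcn and Lum (4579 and 2464 CPM in PBS replicate 1). Of the 12 genes, 4 were highest in PBS replicate 1: Postn (772 CPM), Thbs4 (368), Fmod (298) and Aspn (69.8). Tnmd, Scx and Mkx were lowest there. The osteoblast matrix list summed to 261700 to 477100 CPM in DOX and to 207000, 593800 and 612800 CPM in PBS replicates 1, 2 and 3, with 0 of 12 genes highest in PBS replicate 1. The osteocyte list, which has no gene of the set in it, summed to 2498 to 3403 CPM in DOX and to 2372, 3335 and 3379 CPM in PBS replicates 1, 2 and 3, with 3 of 19 genes highest in PBS replicate 1. Most of that sum is Cadm1, Dstn and Sp7 (635, 598 and 319 CPM in PBS replicate 1). Sp7 also drives osteoblast differentiation, so the sum is not a measure of osteocytes alone. Sost, which encodes the osteocyte product sclerostin, stood at 4.22, 3.05, 4.6, 0.254 and 3.96 CPM in DOX replicates 1 to 5, and at 1.60, 1.12 and 0.991 CPM in PBS replicates 1, 2 and 3. The part of these cell types in the Spp1, Mepe and Phex values was not tested.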

How the data were processed

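Raw read counts of each gene symbol in 8 libraries were deposited by the authors. The libraries are PCR-amplified cDNA (SMART-Seq v4 Plus, per the labels' protocols), with no molecular identifiers named. The submitters' processing notes name featureCounts 2.0.1, STAR 2.7.9a and Trim Galore 0.6.6, and the build GRCm39. Not given in the sources used here are the annotation, whether strand was used (overlapping and antisense genes cannot then be told apart) and any filter before deposit, where the smallest gene total was 10. Columns were matched to samples by library name, and none was left over (0).

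The counts were tested in R 4.3.3 with edgeR 4.0.16: quasi-likelihood test, TMM scaling, filterByExpr, terms for batch and group, two-sided, Benjamini-Hochberg adjustment over 15373 genes, threshold 0.05. The interaction test added the product of both terms, and the lone PBS library of batch 1 was assumed to vary like the others. DESeq2 1.42.0 and limma 3.58.1 (voom with quality weights) were alternatives. The SE is the fold change over the root of the F value, and log2 CPM carries a prior count of 2. Ratios and correlations used exact permutation in Python 3.11.15, and plots were drawn with matplotlib 3.10.9. Intervals and the floor of 3 counts cover counting or sampling error as stated and no PCR error. In simulated counts for DOX against PBS (14793 genes), edgeR recovered 75% of 100 genes changed 2-fold and 100% of 100 genes changed 4-fold. It also called 9 genes left unchanged. The simulated counts held no shift between batches or of single libraries, and only genes above a minimum level were changed. The shares thus do not give the recovery for a given gene, such as Spp1 with its SE of 0.48.

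Lengths came from GENCODE M21 and promoters from RefSeq, both on GRCm38, which is not the build of the counts, so no other coordinates are given. The monocyte and macrophage sum covers 10 of the list's genes, and another gene is not reported here. The 5 genes and all lists were chosen with earlier results of these data known. Named genes were the 5, Dspp, and from each pathway list the genes called, the 2 of highest mean and the 2 of smallest p, and for each of the 5 the 5 genes of highest Pearson r among those averaging 1 log2 CPM or more, unnamed gene models and immune receptor segments left out. p-values measure the spread between these libraries, which may be in part technical.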

Additional observations from a re-analysis of the deposited data

Results flagged for a closer look

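Ibsp in DOX replicate 1 (12.70 log2 CPM) lay far below the other 4 DOX libraries, with a gap of 0.791 of the group's range, above the critical value of 0.71 for 5 samples. Dmp1 in DOX replicate 2 (10.13 log2 CPM) lay far above the other 4, with a gap of 0.746 of the range. Chance flags about 1 in 20 groups of libraries, and 26 were examined. DOX replicate 1 is the library whose title and treatment tag disagree, and it had the lowest collagen share of the DOX group (23.2%).

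The Spp1 difference between DOX and PBS took opposite directions in every library of batch 1 and batch 2, with an interaction of 2.41 log2 units, higher in batch 2 (edgeR adjusted p = 0.228). Phex did so in the other direction, with -0.86 log2 units (edgeR adjusted p = 0.441). Neither passed over all genes, and 12.1% of genes tested had such a pattern. Batch 1 holds 1 PBS library, so what is particular to that library and what is particular to the batch cannot be told apart.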

How the results depend on the processing

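The 5 genes had no call under any of the 20 alternatives (smallest adjusted p 0.319, for Dmp1 in batch 2 alone). Their direction was less stable. For Spp1 the log2 fold change of -0.37 became 0.14 in limma-voom, 0.60 in batch 2 alone, 0.60 without both PBS replicate 1 and DOX replicate 1, and 0.19 after moving DOX replicate 1 to PBS. After that move Ibsp was 0.18 and Mepe 0.076. In batch 1 alone Dmp1 was -0.11 and Phex 0.39. No label ties same-numbered libraries, and their deviations correlated by 0.248, -0.054 and 0.245, so the numbers were not taken as pairs. With the replicate block, which rests on replicates 1 to 3, Mepe was 0.20, while Spp1 was -0.38, Ibsp -0.22, Dmp1 0.24 and Phex -0.27, and no gene was called. RLE scaling, library totals, DESeq2, both other filters and no batch term kept the direction of all 5, and no batch term moved Spp1 to -0.63 and Phex to -0.30. Leaving out 1 library gave -0.80 to 0.61 for Spp1, -0.26 to 0.0359 for Ibsp, 0.03 to 0.33 for Dmp1, -0.54 to 0.11 for Mepe and -0.44 to -0.02 for Phex. The number of genes called was 0 in edgeR, 26 in DESeq2 and 96 in batch 1 alone, where the spread rests on 2 DOX libraries. It stayed at 0 with any 1 library left out.

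Without DOX replicate 1 the interaction was 1.96 for Spp1, -0.23 for Ibsp, 0.01 for Dmp1, -0.0078 for Mepe and -1.16 for Phex. For the test between batches, with alternatives chosen after seeing the data, leaving out 1 library gave 0 to 938 genes called, against 14, with -1.32 to 0.19 for Spp1. The log2 ratio of Spp1 to Ibsp was 0.58 in batch 2 alone and 0.63 without PBS replicate 1 and DOX replicate 1, and that of Spp1 to Dmp1 was 0.23 and 0.11. Phex to Dmp1 was 0.54 in batch 1 alone. Leaving out 1 library gave -0.70 to 0.64 for Spp1 to Ibsp, -0.80 to 0.01 for Spp1 to Dmp1, -0.63 to -0.10 for Ibsp to Dmp1, -0.70 to -0.07 for Mepe to Dmp1 and -1.11 to -0.02 for Phex to Dmp1. The cause of these shifts was not tested.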
